A study of Mus musculus with 10 samples.

Results

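The proteasome subunit genes of mouse were examined in single oocytes that matured with or without TubA. They are the protein-coding genes with a symbol of Psma, Psmb, Psmc, Psmd or Psme followed by a number, and 44 of the 35501 genes summed from the files met this rule. Of these, 8 encode the alpha ring, 7 the constitutive beta ring, 4 its induced or thymic replacements, 6 the ATPases of the base, 14 the non-ATPase regulatory subunits and their chaperones, and 5 the activators. Psmc3ip, whose symbol holds the same letters but whose protein acts in meiotic recombination, was counted apart. The 10 libraries are metaphase II oocytes of ICR mice aged 6 to 8 weeks, of which 5 are labelled control and the other 5 were given TubA (0.1 µg/mL, 16 h). All were collected from ovaries at the germinal vesicle stage and matured in culture for 16 h at 37 °C in 5% CO2, and the labels give no agent or vehicle for the controls. The labels do not spell out TubA, which commonly stands for tubastatin A, a compound that blocks HDAC6, the enzyme that removes acetyl groups from tubulin. Each library is 1 cell amplified by Smart-seq2, and the labels name no animal, so the spread behind each p-value is that between libraries and may be technical.

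The proteasome is the protease that degrades proteins tagged with ubiquitin. Its core particle is a barrel of alpha rings, which gate the entrance, around beta rings, of which the Psmb5, Psmb6 and Psmb7 products hold the cutting sites. A regulatory particle caps the barrel: its base unfolds substrates with a ring of ATPases, and its lid and ubiquitin receptors bind and strip the tag. In oocytes the proteasome degrades cyclin B and securin at the exit from each meiotic division. Fully grown oocytes make little new RNA and live on stored transcripts, which gain or lose poly(A) tail during maturation. Smart-seq2 copies RNA from its poly(A) tail, so less transcript and a shorter tail cannot be told apart in these values.

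Values are TPM, an abundance per transcript length scaled to 1000000 in each library, so that levels of different genes can be compared. Since this unit drops the read counts, depth is unknown and values carry no counting interval. The 12 oocyte markers looked at all had a mean of at least 1 TPM, and their sum ranged from 30200 to 42900 TPM in control and from 31500 to 43700 TPM with TubA. The sum of 10 cumulus and granulosa cell markers was 11.9 to 33.5 and 16.2 to 31.7 TPM. Of these 10, Cyp19a1 (mean 11.6 TPM) and Kitl (mean 7.74 TPM) were above 0 in every library. They were the only 2 with a mean of at least 1 TPM, while Amh and Foxl2 were at 0 in every library. The sum of 8 theca and stroma markers was 5.19 to 22.2 and 6.40 to 16.9 TPM, and that of 10 blood, immune and endothelial markers 25.8 to 73.1 and 35.1 to 77.5 TPM. By the correlation of their gene levels the libraries fell into 2 sets that cross the groups: set A held control replicates 1 to 3 and TubA replicates 1 and 2, and set B the other 5. TubA replicate 4 stood apart for many subunit genes, as described further on.

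Subunit transcripts together made up a small and steady share of each oocyte's RNA. Their sum was 2962 ± 229 TPM in control libraries and 2872 ± 207 TPM in TubA libraries, given here and below as the mean and SD of 5 libraries a group, control first. The lowest share was 0.259% of the library, in TubA replicate 5, and the highest 0.331%, in control replicate 4. Of the 44 genes, 13 averaged at least 100 TPM over the 10 libraries, 15 lay between 10 and 100 TPM, 10 between 1 and 10 TPM, and 6 under 1 TPM. The non-ATPase regulatory genes held the largest part, 1368 ± 32.3 and 1350 ± 106 TPM. The alpha ring genes summed to 699.5 ± 145 and 670.1 ± 129 TPM, the constitutive beta ring genes to 430.4 ± 125 and 431 ± 82.1 TPM, and the ATPase genes to 197 ± 41.7 and 198 ± 71.6 TPM. These sums take in transcripts not annotated as protein coding, which held a mean of 124.9 TPM in the ATPase gene Psmc6 and 71.5 TPM in Psmb6.

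**Figure D1:**
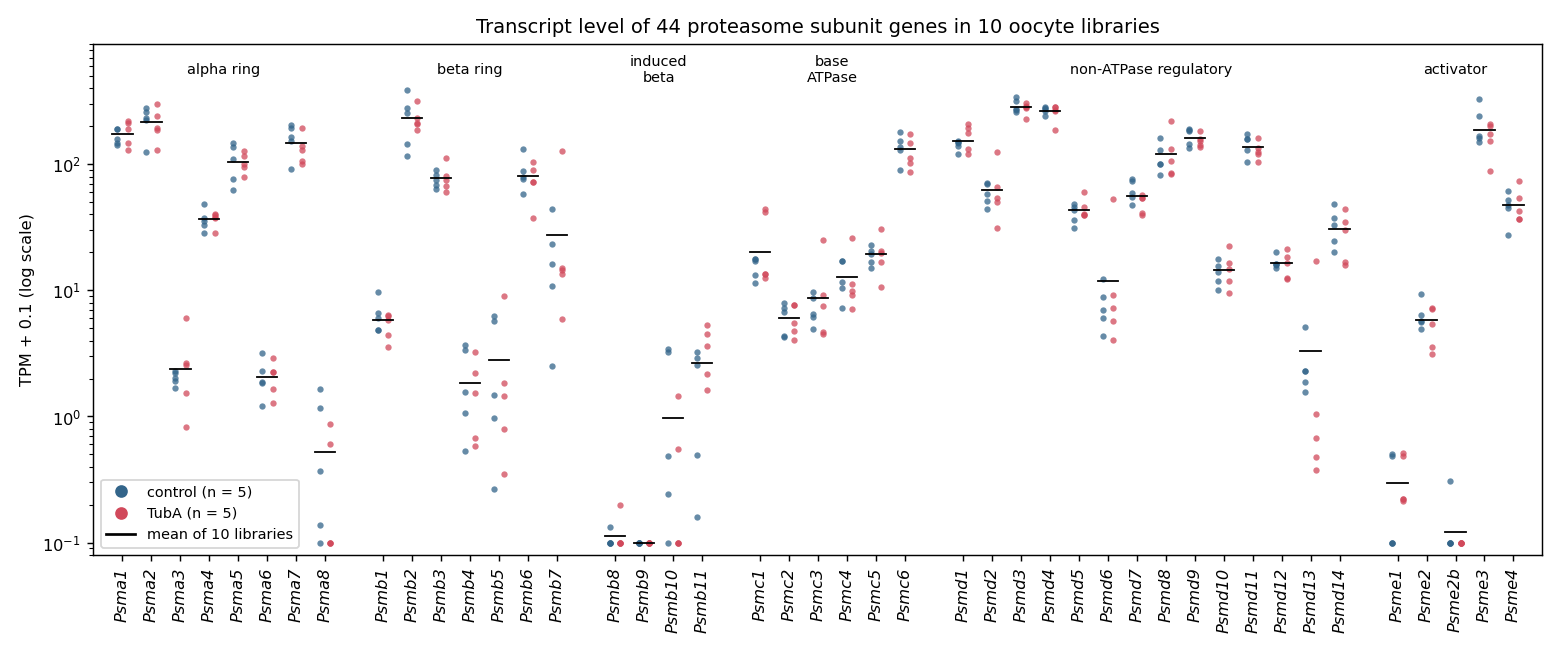
Level of each of the 44 subunit genes (TPM + 0.1, log axis) in the 5 control and 5 TubA libraries, 1 point per library, grouped by subcomplex, with a bar at the mean of all 10. Within each ring or particle the means spread widely, from 1.75 TPM (Psmb4) to 234 TPM (Psmb2) in the constitutive beta ring, and the points of the 2 groups overlap in every gene tested.

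Although each proteasome holds the subunits of a ring in equal number, their transcripts were far from equal. In the alpha ring, Psma2 was the most abundant, at 224, 232, 126, 279 and 261 TPM in control replicates 1 to 5 and, in the same order, at 188, 243, 299.5, 129 and 195 TPM with TubA. Its lowest libraries were control replicate 3 and TubA replicate 4. Psma1, Psma7 and Psma5 followed with means of 173, 148 and 105 TPM. Psma3 and Psma6 encode obligate members of the same ring and had means of only 2.28 and 1.97 TPM. Psma6 ranged from 1.11 to 3.06 TPM in control and from 1.18 to 2.81 TPM with TubA, so its highest library lay below every library of Psma1, Psma2, Psma5 and Psma7.

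The constitutive beta ring showed the same unevenness. Psmb2 had 116, 279, 145, 390.1 and 254 TPM in control replicates 1 to 5 and 210.5, 188, 232, 316 and 213 TPM in TubA replicates 1 to 5. Its control libraries varied 3.36-fold and enclosed all TubA libraries. Psmb4 had 0.433, 1.46, 0.972, 3.61 and 3.27 TPM in control and 0.576, 3.15, 0.482, 2.13 and 1.43 TPM with TubA. Both genes encode structural beta subunits, and their means differed 134-fold. Psmb5, which encodes the subunit that cuts after hydrophobic residues, had a mean of 2.72 TPM and ranged from 0.164 TPM in control replicate 1 to 9.0 TPM in TubA replicate 4. Of the 14 constitutive core genes other than Psma8, 5 had a mean of at least 100 TPM and 5 under 10 TPM (Psma3, Psma6, Psmb1, Psmb4 and Psmb5).

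Sequence shared with other listed genes could shift reads between them. A gene was counted as having a copy where at least 20% of its 31-base words also occur in a single other listed gene. This held for 4 of the 44 genes, with Psmb5 sharing 59.8% of its words, Psma5 46.2%, Psme2 33.5% and Psme2b 77.8% with other listed genes. The copy of Psmb5, Gm3375, had a mean of 0.0627 TPM and that of Psma5, Gm8394, 0.0315 TPM, while Psme2b shares its words with the more abundant Psme2. Psma3 shares 16.2% of its words with the processed pseudogene Gm13835, which had a mean of 0.245 TPM.

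Among the base ATPase genes, with all transcripts of a gene summed, Psmc6 was the most abundant and Psmc2 the least. Only 4.65% of Psmc6 lay in transcripts annotated as protein coding. In these alone Psmc6 had a mean of 6.10 TPM, beside 5.91 TPM for Psmc2 and 20.1 TPM for Psmc1. Psmc6 had 90.1, 152, 136, 179.7 and 129 TPM in control and 147, 102, 86.7, 174 and 113 TPM with TubA. Psmc2 had 4.15, 7.22, 6.66, 7.85 and 4.23 TPM in control and 7.55, 5.46, 4.66, 7.61 and 3.97 TPM with TubA. The ranges of the 2 groups overlapped almost wholly in each of them. The 4 ATPase genes between them had means from 8.61 TPM (Psmc3) to 20.2 TPM (Psmc1).

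The non-ATPase regulatory genes held the most abundant subunit transcripts of the oocyte. Psmd3, which encodes a subunit of the lid, had 275, 269.7, 345, 260.0 and 320.4 TPM in control and 285, 230.4, 287, 281 and 307 TPM with TubA. Psmd4, which encodes the ubiquitin receptor Rpn10, had 278, 286, 274, 266 and 242 TPM in control and 269, 286, 284, 264 and 186 TPM with TubA, with TubA replicate 5 the one low library. Both were among the steadiest: over all 10 libraries the highest value exceeded the lowest 1.5-fold for Psmd3, 1.53-fold for Psmd4 and 1.40-fold for Psmd9, a chaperone of base assembly. Psmd9 had 184, 145, 189.5, 136 and 188 TPM in control and 153, 182, 159, 137 and 142 TPM with TubA. At the other end Psmd13, a lid subunit gene, had 1.47, 1.79, 2.18, 2.18 and 5.04 TPM in control and 0.956, 0.374, 0.274, 17.0 and 0.569 TPM with TubA. The groups of Psmd13 overlapped through TubA replicate 4 (limma unadjusted p = 0.525), while every other TubA library, each under 1 TPM, lay below every control library. That library was set aside after its value was seen. How many of all genes would part in this way was not counted.

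The induced and tissue-specific subunits were low or listed at 0. Psmb8, Psmb9 and Psmb10 encode the catalytic subunits of the immunoproteasome, which interferon induces in somatic and immune cells. Psmb9 was listed at 0 in all 10 libraries. Psmb8 was listed at 0 in 8 libraries and reached 0.0320 TPM in control replicate 5 and 0.0973 TPM in TubA replicate 2. Psmb10 was listed at 0, 0.385, 3.12, 0.143 and 3.31 TPM in control and at 0.457, 1.37, 0, 0 and 0 TPM with TubA. Transcripts not annotated as protein coding made up most of its 2 high values, Psmb10-203 with 2.84 TPM in control replicate 3 and Psmb10-205 with 2.90 TPM in control replicate 5. The coding transcript Psmb10-201 had 0 and 0.406 TPM in these 2 libraries. Psma8, the alpha subunit of spermatocytes, was listed at 0, 1.06, 0.272, 1.56 and 0.0369 TPM in control and at 0, 0, 0, 0.504 and 0.772 TPM with TubA. These 4 genes had a mean under 1 TPM and were not tested. Psmb11, the catalytic subunit of the thymus cortex, had 0.0603, 0.392, 3.12, 2.47 and 2.79 TPM in control and 4.43, 2.07, 1.54, 5.19 and 3.54 TPM with TubA, so the groups overlapped and control replicates 1 and 2 were the low libraries.

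Psmb9 lies head to head with Tap1, the peptide transporter gene that interferon induces with it, and their promoters overlap (chromosome 17, GRCm38). The Psmb9 promoter (chr17:34187281-34187580, minus strand, RefSeq GRCm38.p6, 250 bases before to 50 bases after the start) is shown because its gene was listed at 0 throughout while its neighbour was not, with a CCAAT box, read here on the opposite strand as ATTGG, in capitals.
Psmb9 promoter: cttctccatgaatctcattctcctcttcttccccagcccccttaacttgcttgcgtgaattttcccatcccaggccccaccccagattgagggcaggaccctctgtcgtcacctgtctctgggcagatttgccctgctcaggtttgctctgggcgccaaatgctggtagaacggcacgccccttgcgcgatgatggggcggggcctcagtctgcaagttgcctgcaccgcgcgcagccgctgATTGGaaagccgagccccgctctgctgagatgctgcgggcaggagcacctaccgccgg
Tap1 had 8.0 TPM in TubA replicate 1 and 6.05 TPM in TubA replicate 2, and was listed at 0 in the other 8 libraries. The 2 TubA libraries above 0 are those of library set A, whose 3 control libraries were at 0.

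Of the activators, which open the core particle without ATP, those with a nuclear role were more abundant than those of the immune response. Psme3, which encodes the nuclear activator PA28 gamma, had 243, 161, 332, 167 and 149 TPM in control and 87.7, 210.5, 152, 174 and 200 TPM with TubA. Psme4, which encodes PA200, a nuclear activator known from spermatogenesis and DNA repair, had 44.6, 47.2, 27.2, 51.8 and 61.3 TPM in control and 36.5, 36.4, 73.2, 42.5 and 53.6 TPM with TubA. Both genes overlapped widely between the groups. Psme1 and Psme2 encode the alpha and beta chains of the interferon-induced activator. Psme1 was listed at 0.406, 0, 0.383, 0 and 0 TPM in control and at 0.124, 0.390, 0.113, 0.410 and 0.123 TPM with TubA. Psme2 had 9.28, 6.29, 4.82, 5.64 and 5.56 TPM in control and 6.99, 3.46, 5.34, 3.02 and 7.18 TPM with TubA, although 33.5% of its words are shared with other genes. Psme2b, which resembles Psme2, was listed at 0.206 TPM in control replicate 1 and at 0 in the other 9 libraries.

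For 3 of the 38 genes tested, most of the TPM was assigned to transcripts that the annotation does not mark as protein coding. Psmb6 (chromosome 11, 70525367 to 70527858, GRCm38), the caspase-like catalytic subunit, had 86.9 ± 27.1 and 75.4 ± 25.1 TPM as a gene. Its retained-intron transcript Psmb6-202 of 674 bases took 87.3% of this over the 10 libraries, and the coding transcript Psmb6-201 took 11.8%. The coding transcripts of Psmb6 alone stood at 10.2 ± 2.66 and 9.0 ± 1.42 TPM. In TubA replicate 4 the gene was at its lowest, 37.6 TPM, while the coding transcript was at 11.1 TPM, exceeded in 2 libraries alone, so that the low level lay in the retained-intron form.
Psmc6 (chromosome 14, 45329788 to 45349705) had 4.65% of its TPM in coding transcripts, 3.78% to 5.58% in single libraries. Its retained-intron transcript Psmc6-203 took 50.6% and Psmc6-208, annotated as subject to nonsense-mediated decay, took 38%. The coding transcripts of Psmc6 stood at 5.97 ± 1.61 and 6.22 ± 2.39 TPM, which is close to the level of Psmc2. Psma3 had 27.3% of its 2.28 TPM in coding transcripts. In the other genes tested the coding share was at least 50%, and in 30 of the 38 it was at least 90%. Whether reads of the coding forms were assigned to these shorter transcripts was not tested.

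**Figure D2:**
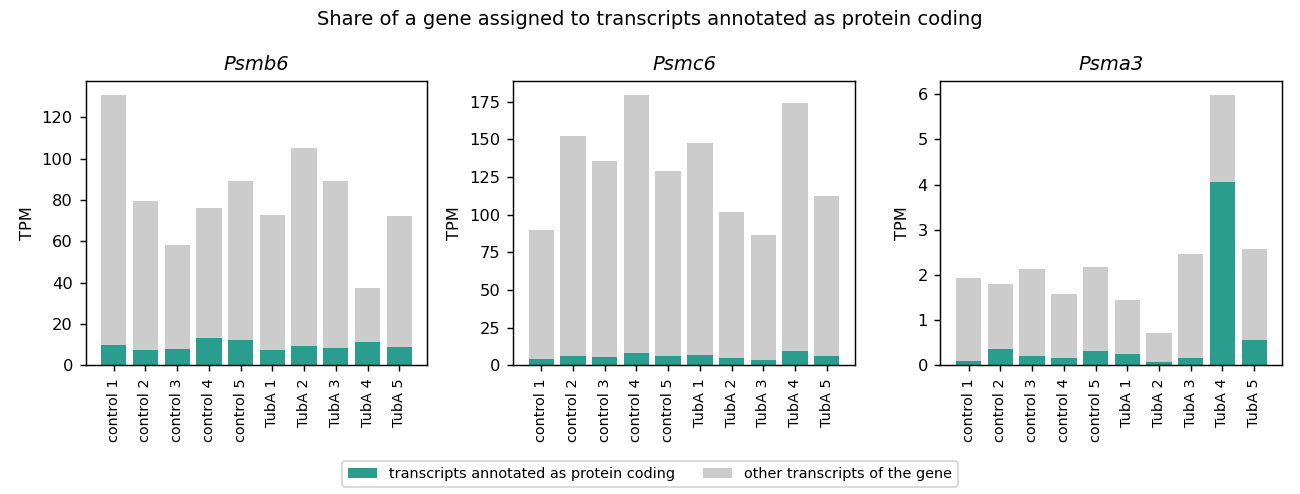
TPM of Psmb6, Psmc6 and Psma3 in each library (bars from 0), split into transcripts annotated as protein coding and all other transcripts of the gene. The coding part is small in every library of Psmb6 (7.51% to 29.5%) and Psmc6 (3.78% to 5.58%), while in Psma3 it reached 67.9% in TubA replicate 4.

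Stored transcripts that gain a tail during maturation commonly carry a cytoplasmic polyadenylation element near their 3′ end. In the last 100 bases of each gene's most abundant complete coding transcript, the letters TTTTAT or TTTTAAT, read on the transcript strand, occurred in 4 of the 38 subunit genes tested (10.53%) against 2089 of 10821 protein-coding genes tested (19.31%). The 4 sites are shown as 30 bases of transcript (GENCODE M21, GRCm38), 5′ to 3′, with the element in capitals, because they mark the few subunit transcripts with it.
Psma1 3′ end: ctataccaatgtTTTTATatgaagaaaata
Psma5 3′ end: gtgtgtgtgtttTTTTATgaagtctgtaca
Psmb1 3′ end: gtttttgcttttTTTTAATaaacttctgtt
Psmb3 3′ end: ttttgtttttctTTTTAATaaaattgcctt
The element began 71, 53, 26 and 24 bases from the transcript's end in Psma1, Psma5, Psmb1 and Psmb3. In Psmb1 and Psmb3 it runs into the letters AATAAA, the poly(A) signal, which were found in the last 40 bases of 25 of the 38 genes (65.79%) and of 59.02% of the protein-coding genes. The 4 genes had means from 5.76 TPM (Psmb1) to 173 TPM (Psma1), so the element was found at low and at high levels, and their log2 differences between TubA and control ran from −0.23 (Psmb1) to 0.10 (Psma1).

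TubA and control oocytes could not be told apart in any subunit gene. Each gene averaging 1 TPM or more was tested with limma on log2(TPM + 1), and p-values were adjusted over all 11664 genes by the Benjamini-Hochberg method. Of the 38 subunit genes tested, 0 passed an adjusted p of 0.05, where 1 of all genes did (0.00857%). At an unadjusted p under 0.05 stood 0 of the 38, against 293 of all genes (2.51%, of which 1.38% lower and 1.13% higher with TubA). In 0 of the 38 did the groups not overlap, against 0.454% of all genes. The differences, given here and below as log2(TPM + 1) with TubA less that in control, were negative in 20 and positive in 18 of the 38, with 48.6% negative over all genes. Their median was −0.02, against 0.01 over all genes. The 38 genes passed a filter on the mean of all libraries, and 6 of the 44 (Psma8, Psmb8, Psmb9, Psmb10, Psme1 and Psme2b) did not.

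The intervals give the differences that remain compatible with these libraries. For 30 of the 38 genes (78.9%) the 95% interval of TPM + 1 stayed within 2-fold, up or down, against 57.0% of all genes. The median standard error was 0.27 log2 units, against 0.33 over all genes. For Psmd3 the interval ran from −0.40 to 0.25 and for Psmd4 from −0.42 to 0.27. For Psmb7, the trypsin-like catalytic subunit, it ran from −1.29 to 2.12. These intervals are not limits of detection, since a call also had to pass adjustment over all 11664 genes. In simulated data the fit recovered 33.2% of 2-fold changes, placed in the more abundant genes. A p above the threshold does not show that the levels were alike.

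**Figure D3:**
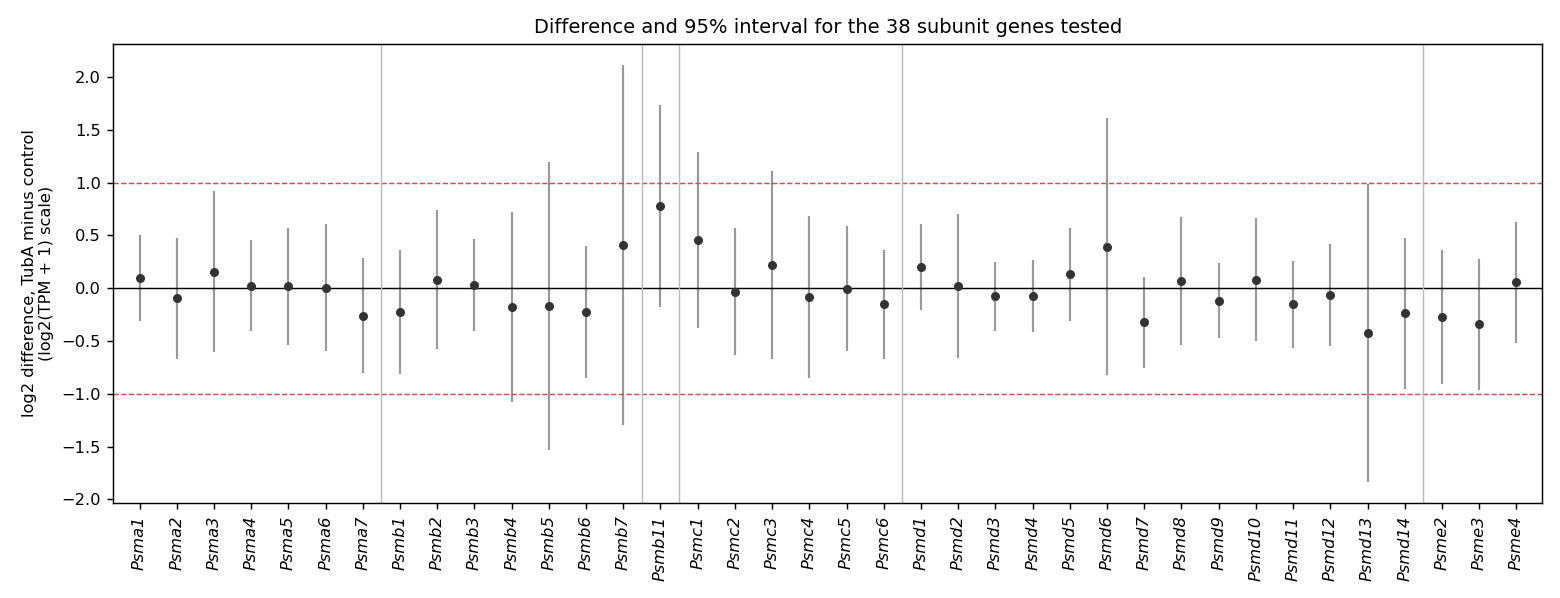
Difference between TubA and control on the log2(TPM + 1) scale for the 38 subunit genes tested, with 95% intervals from limma, by subcomplex, and dashed lines at a 2-fold change. Every interval crosses 0, and 30 of 38 lie between the dashed lines, the widest being those of Psmb7, Psmb5, Psmd13 and Psmd6.

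The 6 genes of smallest p came from 5 subcomplexes and had no common direction. Psmb11 had the smallest p, at group means of 1.77 ± 1.43 and 3.35 ± 1.54 TPM, with a log2 difference of 0.78 (SE 0.44, limma unadjusted p = 0.103, adjusted p = 1.0). Psmd7, a lid subunit that pairs with the deubiquitinase Psmd14, had 73.2, 75.8, 47.9, 58.8 and 54.9 TPM in control and 54.1, 54.2, 57.2, 39.7 and 41.2 TPM with TubA. Its log2 difference was −0.32 (SE 0.20, limma unadjusted p = 0.130). The 2 high libraries of Psmd7 were control replicates 1 and 2, and the other 8 overlapped. Psme3 had a log2 difference of −0.34 (SE 0.28, limma unadjusted p = 0.249), which was −0.78 in the libraries of set A and 0.14 in those of set B. Psmc1, a base ATPase gene, had 13.2, 16.9, 17.7, 17.7 and 11.4 TPM in control and 42.0, 13.4, 13.3, 44.2 and 12.4 TPM with TubA. Thus TubA replicates 1 and 4 were high and the other 3 lay among the controls (log2 difference 0.46, SE 0.38, limma unadjusted p = 0.258). Psmd1, the scaffold subunit of the base, had 154, 120.3, 146, 139 and 149.8 TPM in control and 209.7, 178, 120.0, 131 and 194 TPM with TubA. TubA replicates 1, 2 and 5 lay above every control library and the other 2 within or just below their range (log2 difference 0.20, SE 0.19, limma unadjusted p = 0.307). Psma7, an alpha ring gene, had 152, 164, 92.3, 193 and 206 TPM in control and 99.7, 139, 194, 106 and 130.4 TPM with TubA (log2 difference −0.26, SE 0.25, limma unadjusted p = 0.320). Within library set A the differences were 1.16 for Psmb11, −0.24 for Psmd7, 0.56 for Psmc1, 0.47 for Psmd1 and −0.16 for Psma7, and within set B 0.19, −0.32, 0.43, 0.01 and −0.52. In each set alone 0 subunit genes passed an adjusted p of 0.05, and 0 had an unadjusted p under 0.05 (limma).

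By subcomplex the medians of the log2 differences had no common sign. They were 0.02 for 7 alpha ring genes, −0.17 for 7 constitutive beta ring genes, −0.02 for 6 ATPase genes and −0.07 for 14 non-ATPase regulatory genes. The 3 activator genes tested had a median of −0.27, and the 1 induced or thymic gene tested, Psmb11, had 0.78.

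**Figure D4:**
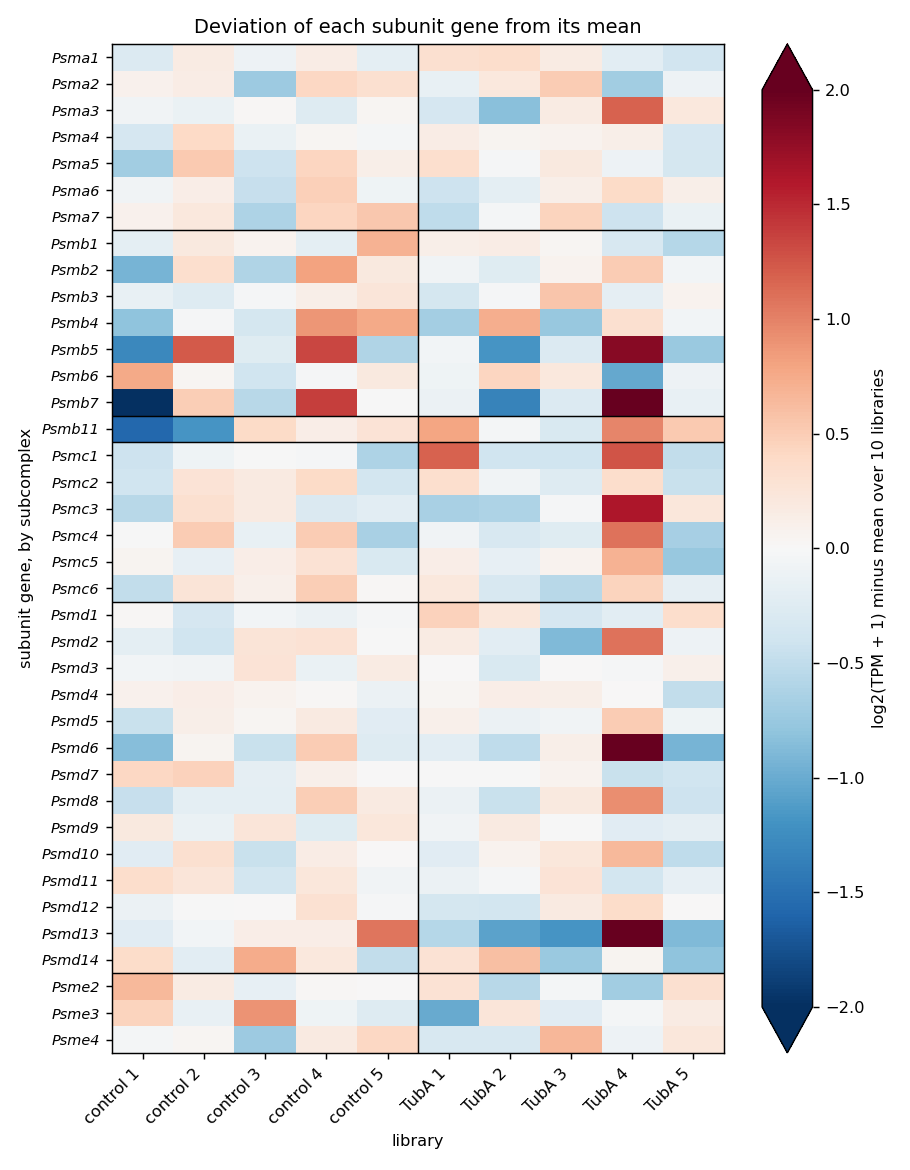
Deviation of each of the 38 subunit genes tested from its mean over all 10 libraries, on the log2(TPM + 1) scale (colour, cut at 2 in either direction), with libraries in columns and genes in rows by subcomplex. TubA replicate 4 shows the strongest positive deviations (Psmd13, Psmd6, Psmb7, Psmb5 and Psmc3), and control replicate 1 the strongest negative one (Psmb7).

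Single libraries stood apart, TubA replicate 4 most of all. This library was singled out after its values were seen, so the counts that follow are a description without a test. It held the highest value of 15 of the 38 genes (39.5%), against 21.1% of all genes tested. These were 4 of 6 ATPase genes, 7 of 14 non-ATPase regulatory genes, 2 of 7 constitutive beta ring genes, Psma3 and Psmb11. In 5 genes (13.2%) TubA replicate 4 lay at least 2-fold above every other library, against 3.18% of all genes. No other library had a subunit gene at that distance. The count of 15 was 13 under upper quartile scaling and 17 with coding transcripts alone, and the count of 5 stayed at 5 in both.

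Psmd6, a lid subunit, was the farthest. It had 4.22, 8.78, 5.89, 12.3 and 6.88 TPM in control and 7.09, 5.58, 9.14, 53.3 and 3.94 TPM with TubA, so that TubA replicate 4 stood 4.33-fold above the next library. Most of this was the coding transcript Psmd6-206, with 44.3 TPM in TubA replicate 4. It is 576 bases long and annotated as incomplete at its end. The complete coding transcript Psmd6-201, of 1387 bases, had 8.82 TPM in TubA replicate 4 and at most 3.05 TPM in the other libraries. Psmd13 in that library stood 3.38-fold above the next. Psmb7 had 2.43, 23.3, 10.7, 44 and 16.1 TPM in control and 15, 5.81, 13.3, 128 and 14.5 TPM with TubA. It was the most variable subunit gene above 10 TPM, with a 52.8-fold range, the highest library 2.92-fold above the next and control replicate 1 at the low end. Psmc3, a base ATPase, had 4.80 to 9.69 TPM in control and 4.42, 4.6, 7.40, 25.2 and 9.01 TPM with TubA. In TubA replicate 4, 13.2 TPM of Psmc3 belonged to the coding transcript Psmc3-210, which was at 0 in the other 4 TubA libraries. In control replicates 1 to 5 this transcript had 1.347, 1.604, 2.995, 0.00026 and 0 TPM. Psma3 had 1.59 to 2.18 TPM in control and 1.45, 0.721, 2.46, 5.99 and 2.57 TPM with TubA, and 3.87 TPM of the 5.99 belonged to Psma3-208, a coding transcript listed at 0 in every other library.

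Without TubA replicate 4 the differences of 4 of these 5 genes turned from positive to negative, and that of Psmd13 grew more negative. The 5 genes were picked for their high values in this library, so a lower difference without it was fixed in advance. The log2 difference of Psmd6 was 0.39 with it and −0.19 without, that of Psmb7 0.41 and −0.26, that of Psmc3 0.22 and −0.15, and that of Psma3 0.16 and −0.12. Psmd13 went from −0.42 to −1.14 (limma unadjusted p = 0.0057, adjusted p = 1.0), and was then the only subunit gene with an unadjusted p under 0.05. In that fit 383 of all 11555 genes had an unadjusted p under 0.05 (limma). With all 10 libraries, the difference of Psmd13 was −1.04 at a pseudocount of 0.1 and −0.03 at 5. Of the 38 genes, 29 were negative without TubA replicate 4 and 20 with it. The median over all genes was −0.03 without it and 0.01 with it. The share of all genes that were negative without it was not counted.

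Other genes outside the proteasome moved with the same library. Of the 12 oocyte markers, 7 had their highest value there (Zp1, Zp2, Zp3, Nlrp5, Ooep, Zar1 and Figla), while Gdf9, Bmp15, H1foo and Oosp1 did not and Mos had its lowest. Zp3, a protein of the egg coat, had 406, 3718, 1170, 5363 and 2303 TPM in control and 2858, 749.8, 998, 8123 and 1313 TPM with TubA, with control replicate 1 the lowest, as in Psmb7. The summed oocyte markers were also highest in TubA replicate 4, at 43700 TPM, as were the summed blood, immune and endothelial markers, at 77.5 TPM. The cumulus and granulosa markers summed to 17.9 TPM and the theca and stroma markers to 12.4 TPM in that library, within the range of the others. The part of these markers in the subunit values was not tested. Psmc3ip reached 5.33 TPM in TubA replicate 4 and between 0.205 and 1.75 TPM in the other libraries.

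TubA replicate 5 stood at the other end. It held the lowest value of 9 of the 38 subunit genes (23.7%), against 6.41% of all genes, and the highest of none. Control replicate 1 also held the lowest value of 9 (23.7%), against 23.4% of all genes.

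**Figure D5:**
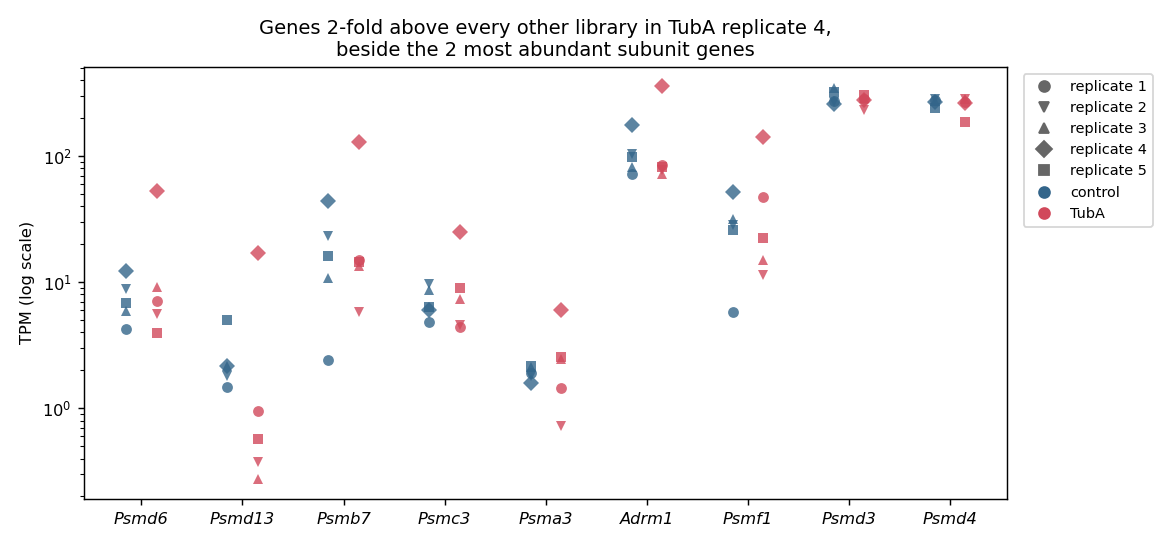
TPM (log axis) in every library for the 5 subunit genes and 2 of the 4 related genes that lay at least 2-fold above every other library in TubA replicate 4, beside Psmd3 and Psmd4, the most abundant subunit genes. The red diamond of TubA replicate 4 stands alone above the rest in the first 7 genes, from 2.01-fold (Adrm1) to 4.33-fold (Psmd6), and among the other libraries in Psmd3 and Psmd4.

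The promoters of Psmd6 and Psmd13, the genes with the largest such distance, are shown to compare them (RefSeq GRCm38.p6, 250 bases before to 50 bases after the start, 5′ to 3′ on the gene's strand). Psmd6 lies at chr14:14120896-14121195 on the minus strand and Psmd13 at chr7:140882144-140882443 on the plus strand, and the capitals mark the letters CCGGAAGT, the core of a binding site of ETS factors.
Psmd6 promoter: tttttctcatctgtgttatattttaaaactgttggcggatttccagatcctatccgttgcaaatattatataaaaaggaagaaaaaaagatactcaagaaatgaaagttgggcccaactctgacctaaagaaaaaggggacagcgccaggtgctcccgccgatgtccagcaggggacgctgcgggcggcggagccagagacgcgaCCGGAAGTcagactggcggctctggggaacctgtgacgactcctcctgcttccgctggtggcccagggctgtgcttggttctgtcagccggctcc
Psmd13 promoter: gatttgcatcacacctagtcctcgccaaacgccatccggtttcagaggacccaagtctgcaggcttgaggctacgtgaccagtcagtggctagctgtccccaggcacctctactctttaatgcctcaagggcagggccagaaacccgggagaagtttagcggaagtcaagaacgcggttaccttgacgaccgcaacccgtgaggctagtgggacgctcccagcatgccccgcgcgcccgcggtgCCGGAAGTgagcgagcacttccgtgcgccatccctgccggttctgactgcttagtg
These letters were chosen after both sequences had been seen. On either strand they occurred in 8 of the 37 subunit genes with a promoter in the table (21.62%), namely Psma6, Psmc1, Psmc2, Psmd12, Psmd13, Psmd6, Psme3 and Psme4, against 4.31% of all genes in it and 9.50% of the protein-coding genes tested. The 8 include Psmd6 and Psmd13, from which the letters were taken, so the subunit share is raised by the choice. The 37 also include subunit genes that were not tested. Of the 3 other genes that stood at least 2-fold out in TubA replicate 4, Psma3 alone has an entry in the table, and its window does not hold these letters. The letters TGACNNNGC, the core of the antioxidant response element through which NRF1 drives subunit genes, occurred in 6 of 37 (16.22%) against 13.99% of all genes and 16.85% of those tested. CCAAT, the site of NF-Y, occurred in 14 of 37 (37.84%) against 41.06% and 44.19%. A match is a string of letters in this window and does not show a bound site.

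The other genes of the ubiquitin-proteasome pathway likewise gave no call. Of 47 genes listed, 46 were found in the annotation and 42 were tested, of which 0 passed an adjusted p of 0.05 (limma). At an unadjusted p under 0.05 stood 2, against 2.51% of all genes. The median log2 difference was 0.09, with 16 of 42 negative. Ube3a, a ubiquitin ligase that binds the proteasome, had 283, 370.2, 385, 317 and 296 TPM in control and 266, 231, 274, 251 and 273 TPM with TubA, every TubA library below every control library (log2 difference −0.34, SE 0.15, limma unadjusted p = 0.0367, adjusted p = 1.0). Rad23b, a shuttle factor that carries ubiquitinated proteins to the proteasome, had 12.2, 12.8, 14.5, 18.8 and 16.8 TPM in control and 16.2, 23.6, 32.0, 30.1 and 24.2 TPM with TubA. Its groups overlapped only through TubA replicate 1 (log2 difference 0.69, SE 0.24, limma unadjusted p = 0.0126, adjusted p = 1.0).

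Genes of assembly and supply ranged as widely as the subunits. The assembly chaperone Psmg1 had 177 ± 42.7 and 151 ± 33.3 TPM, whereas its partner Psmg2 was listed at 0 in 6 libraries and reached at most 1.08 TPM. Pomp, the chaperone of core maturation, had 20.1 ± 4.11 and 22.4 ± 7.64 TPM. Nfe2l1, which encodes the factor NRF1 that restores subunit transcription when proteasomes fail, had 108 ± 6.13 and 93.4 ± 16.7 TPM, a log2 difference of −0.22 (limma unadjusted p = 0.214). Of the related genes, 4 lay at least 2-fold above every other library in TubA replicate 4: Adrm1, which encodes the ubiquitin receptor Rpn13, at 358 TPM against at most 178 TPM, Psmf1, a proteasome inhibitor, at 141 TPM against at most 52.2 TPM, the polyubiquitin gene Ubb at 1712 TPM against at most 680.3 TPM, and Faf1, a cofactor of the segregase VCP, at 28.4 TPM against at most 11.0 TPM.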

How the data were processed

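Polyadenylated RNA of 10 single oocytes was measured, 5 control and 5 TubA, with groups from the sample titles. The authors deposited TPM per Ensembl transcript, 1 file per library, read as TPM from the values, which sum to 1000000 in each library. Bowtie 0.12.2 and build mm10 are named per the submitters' processing notes; what program gave abundances, which annotation release was used and whether strand was kept is not given in the sources used here, so a gene and an antisense partner cannot be told apart. TPM keeps no depth, and a value of 0 is given as listed at 0. No pair of files held identical values (0 pairs).

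Transcripts were summed to genes with GENCODE M21 (GRCm38, the assembly of mm10). Of 115270 transcripts, 113492 matched. The 1778 that did not held 0.531% to 0.753% of the TPM and were left out. limma 3.58.1 (R 4.3.3) with intensity trend and robust moderation was fitted on log2(TPM + 1) to all 10 libraries without covariates, for the 11664 genes averaging 1 TPM or more, with Benjamini-Hochberg adjustment at 0.05. The log scale understates changes of low genes. Tested on 10 simulated data sets with 200 of 11664 genes changed, the fit recovered 33.2% of 2-fold and 80.9% of 4-fold changes, with 4.88% false calls. The changed genes were drawn from the more abundant ones, so recovery in low subunit genes was not simulated. Noise was drawn for each gene on its own, without library sets. Tables and figures used Python 3.11.15, pandas 2.3.3, numpy 2.4.6 and matplotlib 3.10.9.

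Named with every library's value are the highest and lowest gene of each subcomplex and all induced or tissue-specific forms, the 6 genes of smallest p, and, for spread, the 3 steadiest and 3 most variable genes averaging 10 TPM or more. Other genes are named by level or count, and those named for TubA replicate 4 were chosen after their values were seen. The members, the related genes and the markers were chosen with earlier results of these data known. The alternatives were other pseudocounts, filters, scalings and library weights, the replicate number as a block, the library set as a term, coding transcripts alone, copies added, and leaving out each library. Each library set alone was added after seeing the data. Promoters came from the RefSeq table, where 37 of the 44 genes had an entry.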

Additional observations from a re-analysis of the deposited data

Results flagged for a closer look

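In 7 of 76 gene and group combinations of the 38 subunit genes tested, the highest or lowest of the 5 libraries stood apart from the others by more than a Dixon limit that chance passes in about 1 in 20 groups. Psmd13 stood apart with TubA through replicate 4, at 17.0 TPM, and in control through replicate 5, at 5.04 TPM. Psmb7, the trypsin-like catalytic subunit, stood apart with TubA through the same replicate 4, at 128 TPM. TubA replicate 5 was the low library of Psma4, an alpha ring gene, at 28.4 TPM, and of the ubiquitin receptor gene Psmd4, at 186 TPM. In control, Psma2 was low in replicate 3, at 126 TPM, and the lid subunit gene Psmd12 was high in replicate 4, at 20.2 TPM. Of the 7, 4 were in TubA and 3 in control libraries. The rate of 1 in 20 assumes normally distributed values, and the same count was not made over all genes.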

How the results depend on the processing

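Over all alternatives, 0 subunit genes and 0 related genes passed the limma threshold, and the median log2 difference of the subunit genes lay between −0.14 (library weights) and 0.06 (without 1 library). The count over all genes tested, 1 in the report, was 0 when genes averaging under 5 TPM were left out, 0 with the replicate number as a block and 0 in library set B alone, and 12 in set A alone, each set added after seeing the data. The filter leaves the called gene out, each set alone holds 5 libraries, and for the block the cause was not tested. The log2 difference of Psme3 was −0.34 in the report and 0.14 in set B alone. Leaving out each library in turn gave a median between −0.12 and 0.06, with 1 gene called each time over all genes and 0 among the subunits. It gave 0.48 to 0.97 for Psmb11, −0.41 to −0.25 for Psmd7, −0.45 to −0.13 for Psme3, 0.20 to 0.64 for Psmc1, 0.11 to 0.31 for Psmd1 and −0.45 to −0.16 for Psma7. The log2 difference of Psmb11, a low gene, was 1.47 with a pseudocount of 0.1 and 0.31 with 5, against 0.78 with 1, and library weights gave −0.08 for Psme3 and 0.21 for Psmc1, against −0.34 and 0.46. The replicate numbers are not shown to pair the libraries: the correlations of the deviations of same-numbered libraries were 0.00308, −0.00484, −0.308, 0.476 and 0.258, and only control replicates 4 and 5 correlated best with the TubA library of their own number. The block gave 0 subunit genes, as did the fit without it. With library weights 30 of the 38 differences were negative, with the library set as a term 27, and without control replicate 1 also 27. The medians over all genes in these fits were −0.0204, 0.0039 and −0.0405, in the same order. The shares of all genes that were negative in them were not counted. TPM carries no depth, so what depth limits cannot be read from these files.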
